A study of Homo sapiens with 9 samples.

Results

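Within the protein-coding transcriptome of LNCaP cells, 114 of 19984 genes had a clear level in the wild-type clone and much lower levels in both clones that carry a deletion at *EPCART*, a long noncoding RNA gene. LNCaP is an established human prostate cancer cell line with luminal features. The clones del-4 and del-56 lack the *EPCART* promoter with its first and second exon after CRISPR-Cas9 editing, and WT is their wild-type control, a clone that the labels place in the same CRISPR-Cas9 work. Each clone was grown untreated in serum-containing medium for 48 h and gave 3 RNA-seq libraries, 9 in all. Each genotype is represented by single clones, so differences between clones that have nothing to do with *EPCART* and an effect of the deletion cannot be told apart. For the same reason a gene that is low in both deletion clones and a gene that is high in the WT clone alone look the same.

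The 114 genes were chosen by their measured values. The mean normalised count of the 3 WT libraries had to be at least 50, and each of the 6 deletion libraries had to lie at or below 50 percent of the lowest WT library. Genes of 5 families (symbols starting with MAGEA, PCDH, H2A, UGT2B or FUCA) were left out, which removed 6 genes that met the same limits. Levels against WT are therefore a description of the choice and carry no test. The members made up 0.829% of the 13753 genes with a WT mean of at least 50. Over all genes tested, 2.94% were lower in del-4 than in WT and 2.69% were lower in del-56 (limma, adjusted p under 0.05 and a log2 fold change beyond 1), but the rule used these contrasts, so the members cannot be read against those shares.

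A normalised count is the number of reads on a gene divided by a size factor of the library, and it is not corrected for gene length, so levels of different genes were not compared. Libraries held 91074556 to 118877134 reads on genes. The summed level of 10 luminal prostate markers, among them *KLK2*, *KLK3* and *TMPRSS2*, lay between 334657 and 352676 in the WT libraries, between 316190 and 321178 in del-4, and from 301423 to 309575 in del-56, so both deletion clones were below WT. Their log2 fold changes against WT ran from -0.71 to 0.25. None of the 10 was a member, and 0 passed the limits of a call by limma, edgeR or DESeq2, although an unadjusted p under 0.05 (limma) was found for 7 in del-4 and for 5 in del-56. Markers of basal, neuroendocrine, fibroblast, endothelial and leukocyte cells gave sums of at most 2539 in any library, and *CDH5* and *CD3E* were at 0 throughout. The sum of 8 fibroblast markers was 1116 to 1214 in WT, 1284 to 1490 in del-4, and from 1421 to 1570 in del-56. For 8 leukocyte markers it was 1423 to 1588 in WT, 2026 to 2156 in del-4, and from 1830 to 2286 in del-56. Both sums were thus higher in every deletion library than in any WT library, as was the basal sum in del-56 (2261 to 2539, against 1939 to 2047 in WT), while the neuroendocrine and endothelial sums overlapped with WT. Of these, *SCG3* was higher in del-4 than in WT, *NGFR*, *LUM* and *CD14* were higher in del-56, and none was lower. Their part in the levels of the members was not tested. The *EPCART* transcript itself was not analysed here.

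On the members' means, del-4 kept a median of 14.0% of the WT level and del-56 kept 13.4%. The loss ranged from partial to complete, with upper ends of 48.3% in del-4 and of 47.0% in del-56, and a lower end of 0 for both. In both clones 66 members stayed below 25% of WT and 31 stayed below 10%. In bulk libraries, fewer cells that express a gene and less RNA per cell cannot be told apart. The limits cut through a continuous range. *CRYBG1* and *NRSN2* lay just inside, with their highest deletion library at 49.7% and 49.9% of their lowest WT library, and *MFSD6* and *SDC2* just outside, both at 50.02%. At the lower end of expression *CTAG2* (WT mean 53.7) and *NHLRC1* (56.3) were inside, and *CCDC180* (49.0) and *FAM167B* (46.3) outside.

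Genes that only germ cells normally use, the cancer-testis genes, are switched on in many tumours from clone to clone. HENMT1 is a methyltransferase that adds a protective methyl group to the last nucleotide of piRNAs, the small RNAs that restrain transposons in germ cells. FCAMR is a surface receptor for IgA and IgM, and PIGR, encoded beside it, carries IgA and IgM across epithelia.

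The members near 0, meaning a mean of at most 2% of the WT mean in both clones, were 9 genes. They were *HENMT1*, *FCAMR*, *LACC1*, *CCDC122*, *MAGEC1*, *MYOT*, *NHLRC1*, *ITPRIPL2* and *S100A7*. Across their 54 deletion values the highest was 14.1, and across their 27 WT values the lowest was 41.5.

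**Figure D1:**
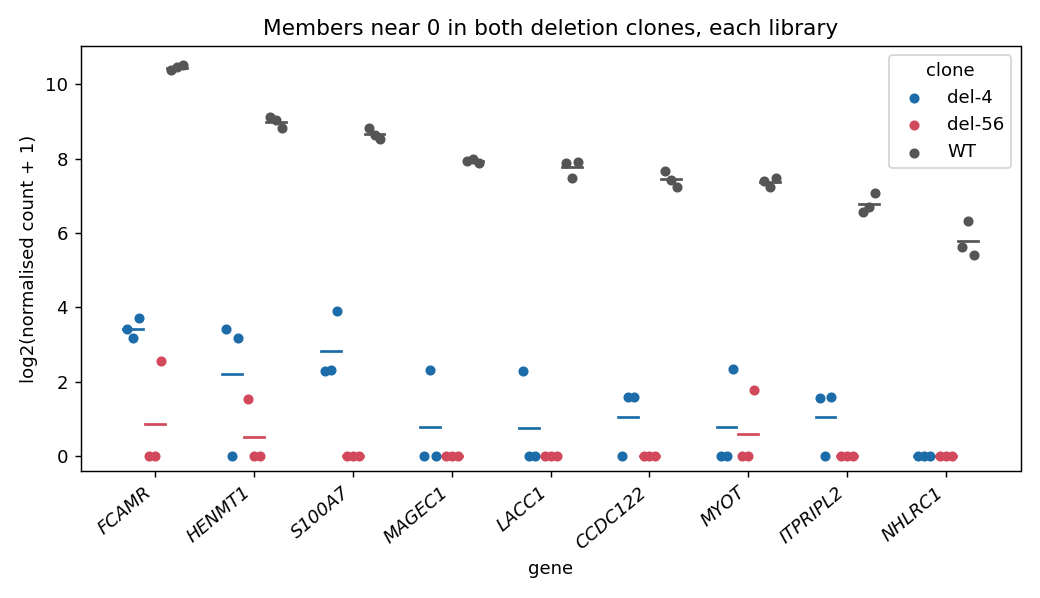
Each point is 1 library, as log2 of the normalised count plus 1, and each bar the mean of 3 such values, for the 9 genes near 0 in both deletion clones, ordered by WT level. All del-4 and del-56 points lie below 4 on this scale and all WT points above 5, with *NHLRC1* at 0 in all 6 deletion libraries.

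*HENMT1* (ENSG00000162639, chr1:108648290-108661526, minus strand, GRCh38) had 551, 524 and 451 normalised counts in the WT libraries. It had 9.60, 0 and 8.04 in del-4, while del-56 had 1.91, 0 and 0. The rule allowed no member a deletion library within the WT range. The mean was 508.5 ± 51.9 (SD, n = 3) in WT, 5.88 ± 5.15 (SD, n = 3) in del-4 and 0.636 ± 1.10 (SD, n = 3) in del-56. The level was 86.5-fold lower in del-4, from 18 reads in all. It was 799-fold lower in del-56, where 2 reads gave a 95% exact Poisson interval of 221 to 6601. Such intervals cover counting error only.

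*FCAMR* (ENSG00000162897, chr1:206957965-206970625, minus strand) was the most strongly detected of the 9 in WT, with 1336, 1412 and 1455 normalised counts. The del-4 libraries had 9.60, 7.97 and 12.1, and the del-56 libraries had 0, 0 and 4.85. Both clones were far below WT, and within the deletion clones every del-4 library was above every del-56 library. Against the WT mean of 1401 ± 59.8 (SD, n = 3), the level was 142-fold lower in del-4 and 866-fold lower in del-56, the latter from 4 reads. *PIGR*, the next gene on the chromosome at 11499 bases, had 217, 159 and 190 in WT, 15.4, 11.95 and 2.01 in del-4, while del-56 had 11.45, 10.0 and 12.1. *PIGR* kept 5.19% and 5.95% of the WT mean, so it lay outside the 2% limit. Its split between WT and deletion libraries was set by the rule, as for every member.

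*LACC1*, a regulator of macrophage metabolism and inflammation, and *CCDC122*, a coiled-coil gene of little known function, are neighbours on chromosome 13 and point in opposite directions. *LACC1* (chr13:43879284-43893932, plus strand) had 237, 179 and 239 normalised counts in WT, 3.84, 0 and 0 in del-4, and 0 in each del-56 library. *CCDC122* (chr13:43823909-43879740, minus strand) had 201, 170 and 151 in WT, 0, 1.99 and 2.01 in del-4, and again 0 in each del-56 library. Both genes were thus lost together in both clones. In del-56 the loss was at least 68.7-fold for *LACC1* and at least 54.9-fold for *CCDC122*, against a floor of 3 reads per library. The gene bodies overlap by 457 bases at their starts, where reads can be shared if strand was not used in counting.

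The remaining near-0 members have unrelated roles. *MAGEC1*, a cancer-testis antigen on the X chromosome, had 246, 253 and 236 normalised counts in WT, 0, 3.98 and 0 in del-4, and 0 throughout del-56, at least 77.2-fold lower. *MYOT*, which encodes the muscle Z-disc protein myotilin, had 167, 149 and 179 in WT, 0, 0 and 4.02 in del-4, while del-56 had 0, 0 and 2.43. *S100A7*, the skin antimicrobial protein psoriasin, had 452, 398 and 369 in WT, 3.84, 3.98 and 14.1 in del-4, while del-56 had 0, at least 128-fold lower. By the rule, no gene among these could have a deletion library within the WT range. *ITPRIPL2* had 93.7, 102 and 133 in WT, 1.92, 0 and 2.01 in del-4, while del-56 had 0. *NHLRC1*, the ubiquitin ligase malin that controls glycogen, had 48.3, 79.1 and 41.5 in WT and not a single read in any of the 6 deletion libraries. That places it at least 19.0-fold lower in del-4 and at least 17.8-fold lower in del-56.

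Single clones added to this set. No read was found in the 3 del-4 libraries for 3 members, *NHLRC1*, *FNDC4* and *PRELP*. No read was found in the 3 del-56 libraries for 8 members, *NHLRC1*, *CCDC122*, *LACC1*, *ITPRIPL2*, *MAGEC1*, *S100A7*, *SLC40A1* and *TSPY4*. *SLC40A1*, the iron exporter ferroportin, had 153, 141 and 151 normalised counts in WT, 5.76, 0 and 8.04 in del-4, while del-56 had 0. *PRELP*, a matrix proteoglycan, had 81.2, 48.3 and 106 in WT, 0 in del-4, while del-56 had 2.86, 0 and 2.43. *FNDC4*, a secreted fibronectin-domain protein, had 102, 94.6 and 126 in WT, 0 in del-4, while del-56 had 3.82, 4.02 and 0. By the rule that chose the members, all deletion libraries had to stand below all WT libraries.

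CpG dinucleotides, the sites of DNA methylation in mammals, are dense at many promoters and sparse at others. DNA methylation was not measured here, and the promoters of the near-0 genes differed widely in CpG content. RefSeq windows of 300 bases (GRCh38.p14, 250 bases before to 50 after a start) are shown 5′ to 3′ on the gene's strand for *HENMT1*, for the start shared by *LACC1* and *CCDC122*, and for the pair *FCAMR* and *PIGR*, because these genes were lost singly, in a head-to-head pair and in a tandem pair. Each CG dinucleotide is in capitals.
HENMT1: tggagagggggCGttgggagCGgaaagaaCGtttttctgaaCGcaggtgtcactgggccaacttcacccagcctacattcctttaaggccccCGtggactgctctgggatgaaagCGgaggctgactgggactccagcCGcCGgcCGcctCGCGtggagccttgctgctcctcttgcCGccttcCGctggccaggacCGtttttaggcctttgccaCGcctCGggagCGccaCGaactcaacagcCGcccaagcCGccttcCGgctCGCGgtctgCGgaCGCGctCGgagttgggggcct
LACC1: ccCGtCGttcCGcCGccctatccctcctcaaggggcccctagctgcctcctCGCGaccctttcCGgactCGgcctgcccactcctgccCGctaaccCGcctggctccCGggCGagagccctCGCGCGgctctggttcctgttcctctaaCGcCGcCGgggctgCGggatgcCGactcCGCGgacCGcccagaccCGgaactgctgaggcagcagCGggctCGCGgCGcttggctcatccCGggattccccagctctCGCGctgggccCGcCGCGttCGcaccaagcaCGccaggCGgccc
FCAMR: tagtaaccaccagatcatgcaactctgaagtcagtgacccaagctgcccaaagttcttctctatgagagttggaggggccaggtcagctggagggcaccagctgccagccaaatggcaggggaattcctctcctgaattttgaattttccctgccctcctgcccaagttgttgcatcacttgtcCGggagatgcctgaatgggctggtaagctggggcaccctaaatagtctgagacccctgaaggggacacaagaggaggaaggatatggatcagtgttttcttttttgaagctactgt
PIGR: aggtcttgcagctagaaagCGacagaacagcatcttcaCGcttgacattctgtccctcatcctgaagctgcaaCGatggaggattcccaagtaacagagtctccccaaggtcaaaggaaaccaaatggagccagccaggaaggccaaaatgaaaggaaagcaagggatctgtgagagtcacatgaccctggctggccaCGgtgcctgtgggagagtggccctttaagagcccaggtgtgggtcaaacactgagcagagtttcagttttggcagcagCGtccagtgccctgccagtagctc
The *HENMT1* window (chr1:108661425-108661724, minus strand) held 27 CG dinucleotides and the *LACC1* window (chr13:43879323-43879622, plus strand) held 37, against a median of 14 over the 35116 windows listed. A window of *CCDC122* on the other strand shares 289 bases with that of *LACC1*. The *FCAMR* window (chr1:206970411-206970710, minus strand) held 1 CG and the *PIGR* window (chr1:206946417-206946716, minus strand) held 5. CpG-dense and CpG-poor starts were thus both found among the genes near 0.

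Of 3 motifs searched on both strands of these windows, the GC box GGGCGG was found for *HENMT1* and *LACC1* and in 45.0% of all windows. The TATA box TATAAA and the E box CACGTG were in none of the windows shown, and in 11.53% and 7.26% of all. The window of *S100A7*, near 0 too but not shown, held 3 CG dinucleotides and a TATA box, but no GC box or E box. No motif contains another, and a match describes the letters only. Windows were listed for 81 of the 114 members (71.1%), under the 80% needed, so the check of CpG content over all members is void and no share is given.

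By known role the members fell into 10 groups of 6 to 17 genes, with 18 genes left over. These groups were made from the members' names after the values were known, so they are a reading aid. No group was made up of near-0 genes alone, and every group held members with a level above 20% of WT in at least one clone.

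**Figure D2:**
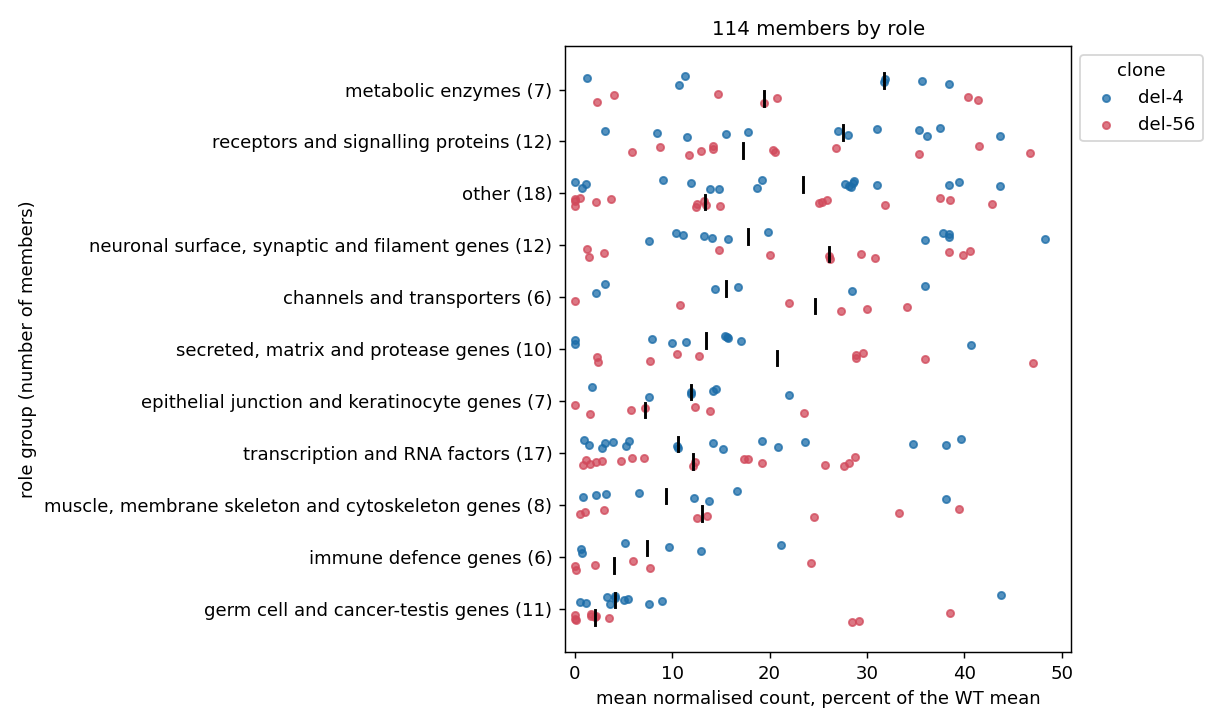
Each point is the mean normalised count of 1 member in 1 deletion clone as a percent of its WT mean, by role group, with black bars at the medians. Germ cell genes have the lowest medians (4.18% for del-4 and 2.06% for del-56), or 4.35% and 3.49% with the *TSPY* copies counted once, and metabolic enzymes the highest in del-4 (31.7%).

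Germ cell and cancer-testis genes were 11 members, whose medians were 4.18% of WT for del-4 and 2.06% for del-56. Besides *HENMT1* and *MAGEC1* they held 5 copies of *TSPY*, a testis-specific Y gene. The copies *TSPY2*, *TSPY3*, *TSPY4*, *TSPY8* and *TSPY10* had WT means of 60.1 to 80.5, and at most 5.51% of WT remained in either clone. They are nearly identical in sequence, so reads can be split between them or counted on several, and they are closer to 1 observation than to 5. Counted once, they leave 7 genes with medians of 4.35% and 3.49%. *SPAG16*, a sperm flagellum gene, had 404, 431 and 358 normalised counts in WT, 42.3, 19.9 and 44.2 in del-4, while del-56 had 19.1, 8.03 and 14.6. *ZP3*, an egg coat glycoprotein, was the mildest of the group at 43.8% and 38.5%. *CTAG2* and *DDX53* kept 3.63% and 7.61% in del-4, against 28.4% and 29.2% in del-56.

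Immune defence genes were 6 members with medians of 7.45% and 4.03%. Beside *FCAMR*, *PIGR* and *LACC1* they were *IFITM2*, which blocks virus entry, *OASL*, an interferon-induced sensor relative, and *MLKL*, the executor of necroptosis. *IFITM2* had 1820, 1912 and 1661 normalised counts in WT, 200, 229 and 268 in del-4, while del-56 had 178, 93.4 and 143. *OASL* had 118, 98.5 and 54.7 in WT, with 21.2% and 24.2% of that mean left in del-4 and del-56. These members shared no single immune function.

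Epithelial junction and keratinocyte genes were 7 members, and all of them stayed below 25% of WT in both clones. *DSC3*, a desmosomal cadherin, had 4201, 3990 and 4072 in WT, 453, 500 and 512 in del-4, while del-56 had 565, 553 and 583. *CLDN3*, a tight junction claudin, kept 21.98% and 23.5%. *CDH3*, which encodes P-cadherin, kept 7.63% and 1.61%. The type II keratins *KRT6B* and *KRT6C* kept 11.97% and 14.2% in del-4, against 5.77% and 7.20% in del-56, and they too share reads to an unknown extent because of their similar sequences. *POF1B*, an epithelial actin-binding protein, kept 14.6% and 12.3%.

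Transcription and RNA factors formed the largest group, with 17 members and medians of 10.6% and 12.1%. *MBNL2*, a splicing regulator, had 305, 324 and 332 in WT, 1.92, 9.96 and 2.01 in del-4, while del-56 had 5.73, 10.0 and 4.85. *TCEA3*, a transcription elongation factor, had 858, 759 and 749 in WT, 15.4, 42.8 and 16.1 in del-4, while del-56 had 27.7, 13.1 and 24.3. Both genes were under 4% of WT in both clones without reaching the 2% limit in both. *HDX*, a homeobox gene of the X chromosome, kept 2.76% and 0.876%. *HOXC10* and *HOXC12*, posterior body-pattern factors, kept 5.23% and 10.5% in del-4, against 1.55% and 19.2% in del-56. *TRMT9B*, a methyltransferase relative, kept 3.88% and 1.18%. *ZNF785*, *KLF7* and *PEG10* were the mildest in del-4, at 34.7% to 39.7%.

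Neuronal surface, synaptic and filament genes were 12 members, with medians of 17.8% and 26.1%. They include *TENM4*, a teneurin (10.4% and 14.9%), *CADM1*, a synaptic and epithelial adhesion molecule (36.0% and 30.9%), *PRPH*, the filament protein peripherin (13.3% and 29.3%), and *SLITRK6* (38.4% and 38.5%). No member of this group was below 10% in both clones.

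Secreted, matrix and protease genes were 10 members with medians of 13.4% and 20.8%. *TLL1*, a procollagen-processing protease, had a WT mean of 1574 and kept 15.7% and 10.5%. *FSTL1*, a secreted glycoprotein, kept 10.0% and 7.69%. *RLN1*, a relaxin hormone gene, kept 7.95% and 12.7%, and *MMP7*, the metalloprotease matrilysin, 17.1% and 28.9%. *CTSC*, the lysosomal protease cathepsin C, was the mildest at 40.7% and 47.0%.

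Receptors and signalling proteins were 12 members, medians 27.5% and 17.3%, and none was below 10% in both clones. *EPHA3*, an ephrin receptor, had 9117, 8621 and 8857 in WT, 3722, 3978 and 3903 in del-4, while del-56 had 4227, 4040 and 4177. *GUCY1B1*, a subunit of the nitric oxide receptor guanylate cyclase, kept 8.49% and 13.0%. The hormone and transmitter receptors *GLP1R*, *HRH1* and *OPRK1* kept 3.08% to 20.6% across both clones.

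Among 8 muscle, membrane skeleton and cytoskeleton genes, *MYOT* included, *STOM*, which encodes stomatin, kept 3.21% and 1.05%, and *SYNE1*, a nuclear envelope linker, kept 6.57% and 3.01%. Among 6 channels and transporters, *ATP1B1*, a sodium pump subunit, had 27946, 25873 and 28594 in WT, 7832, 7549 and 8109 in del-4, while del-56 had 8367, 8494 and 7828. Among 7 metabolic enzymes, *GSTA1*, a glutathione transferase, kept 10.7% and 19.5%, *PGM1*, phosphoglucomutase, 31.9% and 40.4%, and *MGLL*, monoacylglycerol lipase, 31.7% and 41.5%. In these groups partial loss was more frequent than loss to near 0, which only *MYOT* reached.

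The rule did not compare the deletion clones with each other, so this contrast was tested, although it rests on the same 6 deletion libraries. Of the 108 members with enough reads, 27 (25%) differed between del-4 and del-56 (limma on log2 of the normalised count plus 1, adjusted p under 0.05 and a log2 fold change beyond 1). Of these, 14 (13.0%) were higher in del-4, where 1.38% of all 17447 genes tested were, and 13 (12.0%) were lower, where 1.55% of all genes were. For 81 members no call was made, and 43 had a fitted difference within 0.5 log2 units. The other 6, *CCDC122*, *ITPRIPL2*, *LACC1*, *MAGEC1*, *NHLRC1* and *PRELP*, had too few reads in both clones to be tested.

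**Figure D3:**
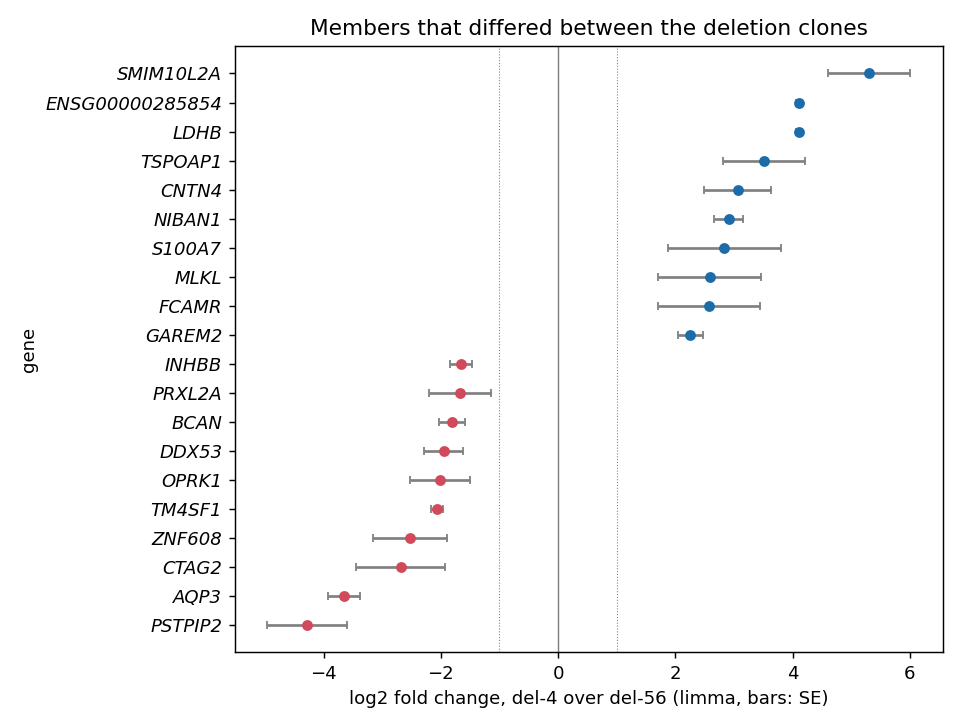
Points are log2 fold changes of del-4 over del-56 with their SE (limma) for the 10 largest called members in each direction, and dotted lines mark a log2 fold change of 1. *SMIM10L2A* and *LDHB* lie farthest on the del-4 side and *PSTPIP2* and *AQP3* farthest on the del-56 side.

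The clearest case was *LDHB*, the lactate dehydrogenase subunit that favours the conversion of lactate to pyruvate. It had 51306, 49048 and 46991 normalised counts in WT, 18708, 19669 and 18255 in del-4, while del-56 had 1072, 1064 and 1152. Partial loss in del-4 (38.4% of WT) thus stood beside near loss in del-56 (2.23%), with a log2 fold change of 4.11 between the clones (SE 0.0476, adjusted p = 4.0e-20, limma). ENSG00000285854, a readthrough gene that contains *LDHB*, gave nearly the same values and is not a second observation.

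*SMIM10L2A*, a small membrane protein gene, was also higher in del-4, with 73.0, 71.7 and 93.4 normalised counts there and 0, 0 and 7.28 in del-56 (log2 fold change 5.30, adjusted p = 2.7e-05, limma). *NIBAN1*, a stress-response gene, had 218, 207 and 234 in del-4, while del-56 had 22.9, 29.1 and 34.0 (log2 fold change 2.91, adjusted p = 1.3e-07, limma). *CNTN4*, an axonal contactin, had 19.2, 37.9 and 36.2 in del-4, while del-56 had 1.91, 4.02 and 2.43. For these genes the clones did not overlap, and del-56 was the clone closer to 0. *TSPOAP1*, an active-zone adaptor, and *GAREM2*, a signalling adaptor, followed the same pattern, with log2 fold changes of 3.51 and 2.26.

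The reverse order, with del-4 closer to 0, was found for *PSTPIP2*, a membrane-bending adaptor, which had 9.60, 7.97 and 0 normalised counts in del-4, while del-56 had 120, 82.3 and 67.9 (log2 fold change -4.28, adjusted p = 2.0e-04, limma). *AQP3*, a water and glycerol channel, had 23.1, 28.9 and 15.1 in del-4, 301, 251 and 303 in del-56, and 1048, 1015 and 1060 in WT (log2 fold change -3.66, adjusted p = 1.9e-08, limma). *TM4SF1*, a tetraspanin-like surface antigen, had 410, 490 and 360 in del-4, while del-56 had 1649, 1763 and 1803 (log2 fold change -2.06). All 3 genes had separate ranges in del-4 and del-56, and the rule set both apart from WT. *BCAN*, the proteoglycan brevican, *INHBB*, the activin beta B subunit, and *DDX53*, a cancer-testis helicase, were also lower in del-4, with log2 fold changes of -1.80, -1.65 and -1.95.

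Several calls between the clones rested on few reads. For *FCAMR* (log2 fold change 2.58, adjusted p = 0.046), *S100A7* (2.84, 0.047) and *MLKL* (2.59, 0.047) the adjusted p of limma was just under 0.05. Without del-4 replicate 3 it rose to 0.164, 0.256 and 0.149. It also rose above 0.05 for these genes without del-4 replicate 1, del-4 replicate 2, del-56 replicate 1 or del-56 replicate 2, and for *S100A7* without del-56 replicate 3. Calls on *PRXL2A* (log2 fold change -1.67), *CTAG2* (-2.68), *OPRK1* (-2.01) and *ZNF608* (-2.53) were lost in the same way. The adjusted p reached 0.130 for *PRXL2A* and 0.0822 for *CTAG2* without del-56 replicate 3, and 0.0755 for *OPRK1* and 0.0563 for *ZNF608* without del-56 replicate 1. It was also above 0.05 for *PRXL2A* without del-4 replicate 1 (0.0798), del-4 replicate 2 (0.117) or del-56 replicate 1 (0.0966), for *CTAG2* without del-4 replicate 2 (0.0548) or del-56 replicate 2 (0.0869), and for *OPRK1* without del-4 replicate 1 (0.0507). Count models on the recovered reads also left *FCAMR* (edgeR 0.151, DESeq2 0.130), *MLKL* (0.204 and 0.182) and *PRXL2A* (0.0879 and 0.0501) above 0.05, and edgeR did so for *CTAG2* (0.0604).

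The members were spread over the genome, with none on chromosomes 14 and 21 or on mitochondrial DNA. Chromosome 1 held 18 members among 1388 genes with a WT mean of at least 50 (1.30%), and chromosome 13 held 7 among 224 (3.13%). Of those 7, the readthrough gene ENSG00000281883 overlaps *LACC1*. The other genes of chromosome 13 had a median log2 fold change against WT of -0.17 for del-4 and -0.16 for del-56, and those of chromosome 1 had medians of 0.11 in both. The lowest medians were those of chromosome 16 (-0.34 and -0.32), which held 4 members among 663 genes (0.603%). Chromosome 2, with medians of -0.15 and -0.16, held 10 among 888 (1.13%). Whether a low median goes with many members was not tested. Some members lay side by side. Besides *PIGR* with *FCAMR* and *CCDC122* with *LACC1*, these were *KRT6B* with *KRT6C* (16370 bases apart), *HOXC12* with *HOXC10* (26109), *PEG10* with *PPP1R9A* (237507), *SLITRK6* with *SLITRK5* (1864688), and *TSPY4*, *TSPY8* and *TSPY3* in a row.

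The nearest tested genes on each side of the members, which were not members themselves and overlapped none, numbered 206. In del-4, 17 of them (8.25%) were lower than in WT and 5 (2.43%) were higher, and in del-56, 18 (8.74%) were lower and 2 (0.971%) higher (limma). Over all genes tested, 1.89% were higher in del-4 and 2.18% in del-56, and the shares that were lower are given above. The median log2 fold change of the neighbours was -0.091 for del-4 and -0.067 for del-56, beside -0.0028 and -0.0011 over all genes. Most neighbours of lost genes were thus not called. With only genes of a mean of at least 10 tested, the count of lower neighbours in del-4 was 11. Fewer neighbours were tested under that filter, and the share of all genes under it is not given here. That count therefore cannot show whether the difference from all genes stays.

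In both clones 15 of the neighbours were lower. Some are close relatives of the member beside them, namely *TSPY1* and *TSPY9*, *KRT6A* beside *KRT6B* and *KRT6C*, *GSTA2* beside *GSTA1*, *RLN2* beside *RLN1*, *TM4SF18* beside *TM4SF1*, *ZNF98* beside *ZNF492*, *S100A9* beside *S100A7*, and *OPTC* and *FMOD* on either side of *PRELP*, and whether they share reads with it was not tested. *S100A9*, a calprotectin subunit, had means of 26.8 in WT, 3.97 in del-4 and, for del-56, 0.669. *OPTC* and *FMOD*, which like *PRELP* encode small leucine-rich proteoglycans, had means of 36.3 and 17.9 in WT, 2.003 and 0.670 in del-4, while del-56 had 0 and 5.39. Others have a different function from the member beside them. *KCNJ8*, a potassium channel 7098 bases from *LDHB*, had a WT mean of 7.05 and no read in either clone. *XCL1*, a chemokine and the nearest gene counted before *ATP1B1* at 523628 bases, had 9.65 and none. Both WT means rest on few reads. For *XCL1* the WT libraries were widely spread (SD 10.25), with adjusted p = 0.027 in del-4 and 0.028 in del-56 (limma). *WDR93*, 28 bases from *PEX11A*, had means of 66.6, 20.3 and 21.6 in WT, del-4 and del-56. Neighbours could also move the other way. *GPC5*, a glypican and the next gene tested after *SLITRK5* at 3702349 bases, had a WT mean of 370, while del-4 had 1058 and del-56 had 1430.

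On the Y chromosome, members lay among genes that were lower, higher or close to WT. Of the 18 Y genes with a WT mean of at least 50, 6 were members, the 5 *TSPY* copies and *UTY*, a histone demethylase relative. *UTY* had 351, 392 and 342 normalised counts in WT, 76.8, 106 and 74.3 in del-4, while del-56 had 66.8, 58.2 and 67.9. The nearest tested genes were not lower. *DDX3Y*, a helicase gene before *UTY* on the chromosome, had means of 5300 for WT, 6836 for del-4 and 7333 for del-56. *VCY*, a testis gene after it, had 173.5, 1951 and 236 (log2 fold change 3.54, adjusted p = 2.3e-11 in del-4, and 0.48, adjusted p = 0.12 in del-56, limma), and it shares its reads with the near-identical *VCY1B*. Other genes of the chromosome were lower, as *TSPY1* (32.15, 0 and 0) and *PCDH11Y* (2969, 808 and 996), which is no member because its family was left out. *AMELY* and *NLGN4Y* were close to WT in both clones, with log2 fold changes between -0.15 and 0.16.

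Genes that share the start of their symbol with a member were mostly not called. For 53 symbol groups of at most 30 other genes, defined by the letters before the first digit, 308 genes beside 60 members were tested. The letters join some unrelated genes (those starting with TM or ZC) and leave out some families, such as that of *S100A7*. In del-4, 12 of the 308 (3.90%) were lower than in WT and 8 (2.60%) higher, where 2.94% and 1.89% of all genes were. In del-56, 17 (5.52%) were lower and 5 (1.62%) higher (limma), where 2.69% and 2.18% of all genes were. In 43 of the 53 symbol groups no other gene was lower in del-4, and in 40 none was lower in del-56. Groups with no other gene lower in either clone included those of *MBNL2*, *EPHA3*, *CLDN3*, *DSC3* and *NHLRC1*. *CTAG1A* and *CTAG1B*, relatives of *CTAG2*, were higher in del-4. For *CTAG1B* the means were low, 5.09 in WT and 36.1 in del-4, and whether it shares reads with *CTAG1A* was not tested. *MAGEC2*, beside the lost *MAGEC1*, rose in del-56 from a WT mean of 225 to 1348 (log2 fold change 2.58, adjusted p = 4.2e-11, limma).

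Over 8 pathway and gene lists, 251 genes that are not members were tested in each clone. Of these, 12 (4.78%) were called lower and 14 (5.58%) higher in del-4 (limma). For del-56 the counts were 16 (6.37%) lower and 14 (5.58%) higher. These are all larger shares than those of all genes given above. The lists were chosen with earlier results of these data known, and the proteins the study lists were picked on the same clones. The larger shares are therefore in part built in, and no conclusion is drawn from them. Of the piRNA pathway list only *HENMT1* was a member. Of its other 27 genes tested, 0 passed the limits for a lower level in del-4 by limma, edgeR or DESeq2, although 6 were lower at an unadjusted p under 0.05 (limma). In del-56, 1 was lower. Its median log2 fold change was -0.16 and -0.18. *PLD6*, a mitochondrial nuclease of piRNA processing, had means of 56.2 in WT and 22 in del-56 (log2 fold change -1.37, adjusted p = 0.0082, limma). *TEX15*, a silencing cofactor, was higher in del-4, with 46.6 against 21.4 (log2 fold change 1.10, adjusted p = 0.021). That call was lost with a pseudocount of 5, in 1 fit of all 9 libraries and without del-4 replicate 1. *PIWIL4*, a piRNA-binding Argonaute, had means of 341 in WT, 196 in del-4 and, for del-56, 268, and *TDRD1*, a Tudor scaffold, had 195, 106 and 350. Neither passed a log2 fold change of 1.

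**Figure D4:**
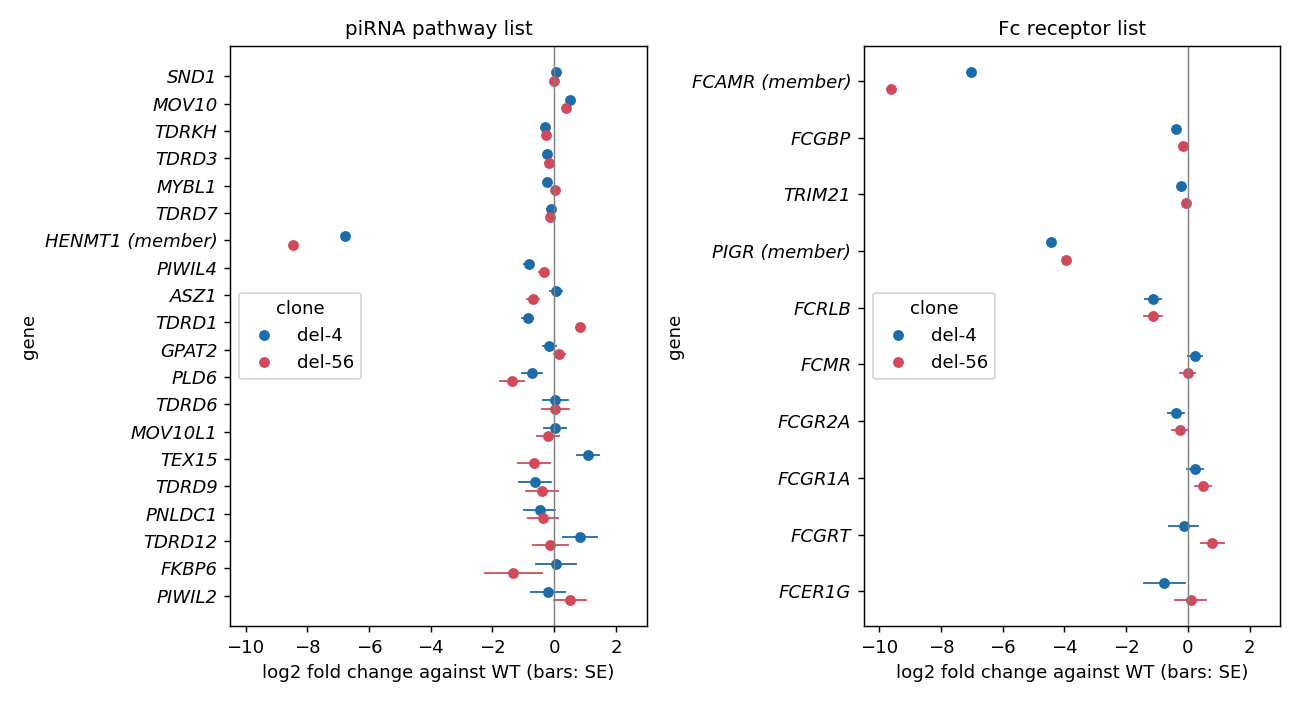
Points are log2 fold changes against WT in del-4 and del-56, with the SE for genes that are not members, for the genes of the piRNA and Fc receptor lists with a mean of at least 10, ordered by WT mean. *HENMT1*, *FCAMR* and *PIGR*, chosen for low values, lie beyond -3.5, and all others between -1.5 and 1.5.

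Of the Fc receptor and immunoglobulin transport list, *FCAMR* and *PIGR* were members and 11 other genes were tested. In each clone 1 of the 11 was lower, *FCRLB*, an intracellular Fc receptor-like protein, whose means were 158 for WT, 74.2 for del-4 and 77.0 for del-56 (log2 fold change -1.13 and -1.12, adjusted p = 0.0013 and 0.0053, limma). The count fell to 0 in del-4 with quantile normalization or without del-4 replicate 2, and to 0 in del-56 without del-56 replicate 2. *FCMR*, the IgM receptor gene, had means of 112, 132 and 111 in WT, del-4 and del-56. The large mucin-like *FCGBP* had 1166, 897 and 1052. Beyond the adjacent pair chosen as members, *FCRLB* was thus the gene of this list that passed the limits.

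The other lists held at most 3 members each. The 33 prostate luminal secretory genes tested included none, *IFITM2* and *OASL* belonged to the interferon-stimulated genes, *MAGEC1* and *CTAG2* to the cancer-testis list, and *CADM1* and *CNTN4* to the immunoglobulin-type adhesion molecules. Of the 33 luminal secretory genes, 4 were lower and 2 higher for del-4, while del-56 had 1 of each (limma). Of 52 other interferon-stimulated genes, del-4 had 1 lower and 4 higher, while del-56 had 5 and 3. Of the other cancer-testis genes, del-4 had 3 lower and 2 higher among 38 tested, while del-56 had 3 and 4 among 36. Of the other adhesion molecules, del-4 had 2 lower and 3 higher among 47, while del-56 had 4 and 3 among 49. These lists were not compared singly with the shares of all genes. Proteins that the study lists as lower in both clones included the members *LDHB*, *ATP1B1* and *CTSC*, and 2 of the other 10, *VTA1* and *NCAM2*, were lower at the RNA level in each clone. In del-4 the 2 fell to 1 without del-4 replicate 2 or without WT replicate 1. The study picked those proteins on the same clones, so that list is not independent.

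Some members share reads. Of the 114, 22 overlap another protein-coding gene, 3 are readthrough genes and 5 are *TSPY* copies. Without the readthrough genes and with the *TSPY* copies counted once, 107 were left. Other members that may share reads, such as *KRT6B* and *KRT6C*, were not merged.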

How the data were processed

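RNA-seq of polyadenylated RNA was analysed in 9 LNCaP libraries, 3 each of the clones del-4, del-56 and WT, grouped by their titles. The file's WT columns also carry a number whose meaning is not given in the sources used here. The labels and the study's methods describe strand-specific paired-end libraries, aligned by the authors to GRCh38 with STAR 2.71a, with read counts on protein-coding genes of GENCODE 38 from bedtools 2.27.1. The strand setting of the counting is not given in the sources used here. The deposited signal values are normalised counts, which the authors obtained by dividing read counts by 1 DESeq2 size factor per library. Whole reads were recovered for 100% of values in each library (within a relative distance of 1e-06 from a whole number), with size factors from 0.825 to 1.06 and 91074556 to 118877134 reads on genes. Symbols were found for 19923 gene identifiers and not for 61. Positions are from GENCODE 44 (GRCh38).

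The main test was limma 3.58.1 (R 4.3.3) with a variance trend on log2 of the normalised count plus 1, over genes with a mean of at least 1 in the 6 libraries compared, with Benjamini-Hochberg adjustment over all genes. A call needed an adjusted p under 0.05 and a log2 fold change beyond 1. The study's methods give Wald test p-values with the same kind of adjustment, and calls at an unadjusted p were kept as an alternative. P-values measure the spread between cultures of 1 clone. Members against WT were not tested. The members and gene lists were chosen with earlier results of these data known. Genes named singly were *HENMT1* and *FCAMR*, members near 0, the 15 members with the highest WT mean, the 10 largest called members in each direction between the deletion clones, members of a list, piRNA and Fc receptor genes with a mean of at least 10, members next to a member, and genes at the limits. Other members and neighbours were named after their values were seen. Alternatives were other pseudocounts, filters and scalings, a joint fit of the 3 clones, a block for the replicate number, DESeq2 1.42.0, edgeR 4.0.16 and leaving out each library. Same-numbered libraries of different clones deviated together only weakly or not at all, so the numbers were not used as pairs. The test was checked on simulated data. Intervals and the floor of 3 reads cover counting error only, and protein sequences were not analysed here. Some genes are not reported here.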

Additional observations from a re-analysis of the deposited data

Results flagged for a closer look

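The following members differed between the deletion clones by the test of that contrast (limma, adjusted p under 0.05), with log2 fold changes of del-4 over del-56. Higher in del-4 were *SMIM10L2A* (5.30), ENSG00000285854 (4.11), *LDHB* (4.11), *TSPOAP1* (3.51), *CNTN4* (3.06), *NIBAN1* (2.91), *S100A7* (2.84), *MLKL* (2.59), *FCAMR* (2.58) and *GAREM2* (2.26). Lower in del-4 were *PSTPIP2* (-4.28), *AQP3* (-3.66), *CTAG2* (-2.68), *ZNF608* (-2.53), *TM4SF1* (-2.06), *OPRK1* (-2.01), *DDX53* (-1.95), *BCAN* (-1.80), *PRXL2A* (-1.67) and *INHBB* (-1.65). ENSG00000285854 and *LDHB* share their reads and count as 1 observation. Groups of 3 libraries are too small for the test of single outlying libraries.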

How the results depend on the processing

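The number of members was 140 and 96 with a WT mean of at least 20 or 100, 81 and 170 with deletion values of at most 40 or 60 percent of the lowest WT value, 122 after rescaling to the same total (all 114 among them), 105 after quantile normalization (all among the 114), and 115 to 132 with 1 library left out. Chosen after seeing the data, 107 were left with the *TSPY* copies counted once and no readthrough genes, and 120 with no families left out. Lower neighbours in del-4 numbered 17, and 11 with a mean of at least 10, since fewer genes were tested. Higher neighbours in del-4 numbered 5, and 3 to 6 with 1 library left out, the fewest without WT replicate 2. Of 316 values of the named members between the clones, 279 kept their call, 37 lost it and 0 changed sign. Members called between the clones numbered 9 to 13 lower and 10 to 13 higher in del-4 with 1 library left out, 11 and 12 by edgeR, and 12 and 12 by DESeq2. Correlations of same-numbered libraries lay between -0.053 and 0.063, and those of other libraries between -0.0535 and 0.0442. Between del-4 and del-56 the same-numbered values were all positive (0.0294 to 0.0632) and the others all negative. All were weak, and the numbers were not used as pairs. With the replicate block 13 members were lower and 14 higher, as without it, while the call of *S100A7* was lost (adjusted p = 0.0604, limma).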
